A study of Mus musculus with 2 samples.

Results

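The genes described are 10 that break down or sense purines and related nucleotides outside the cell: Entpd1, Nt5e, Cd38, Ada, Adora2a, Adora2b, Adora3, P2rx7, P2rx1 and P2ry14. They were taken by symbol from the 32285 gene rows of a single-cell RNA-sequencing matrix, and 23429 of those rows had a UMI (unique molecular identifier, a tag that marks 1 captured RNA molecule) in the cells used. The set was chosen by function with earlier results on these cells known, among them levels by cluster and DEX against PBS differences, so levels across cell classes are given as a description with no test. The cells were live CD45+, lineage-negative, ST2+ cells sorted from wild-type C57BL/6J fetal lungs on gestation day 18. Type 2 innate lymphoid cells (ILC2s), lymphocytes without antigen receptors that live in tissue and respond to IL-33 through ST2, were the target of the sort. From gestation day 12 the pregnant mothers, 9 weeks old, had drinking water that held either 1.3 µg/ml of the glucocorticoid dexamethasone (DEX) or PBS, a buffered salt solution. Fetal lungs of a litter were pooled (DEX-1 with 8 fetuses, DEX-2 with 9, PBS-1 with 5 and PBS-2 with 8), and each litter carried its own hashtag antibody, so the litter was the replicate, with n = 2 per group, and p-values measure the spread between litters. Wherever 4 litter values are listed, the order is DEX-1, DEX-2, PBS-1 and PBS-2.

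ATP leaves stressed or activated cells and acts on P2X channels and P2Y receptors. The surface enzyme CD39, encoded by Entpd1, trims ATP and ADP to AMP, and CD73, encoded by Nt5e, turns AMP into adenosine. CD38 consumes NAD, adenosine deaminase (Ada) converts adenosine to inosine, and adenosine itself is sensed by G protein-coupled receptors that raise or lower cyclic AMP. In the lung, adenosine and ATP are known as signals to mast cells, and rodent mast cells are known to release mediators through the receptor encoded by Adora3.

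Hashtags assigned 7268 singlets to litters (1737 to 1890 per litter, 18665955 to 23660294 UMIs per litter). Clusters were named from marker genes, without using the 10 genes or the wider purine list, and gave 2084 ILC2-like, 2314 mast-like, 482 basophil-like, 199 B-like, 279 endothelial-like, 405 epithelial-like and 199 mesenchymal-like cells. A further 1306 cells stayed in 6 unnamed clusters, which are called by their leading genes. The 10 ILC2 markers summed to 4062 to 4517 CPM (the UMIs of a gene per 1000000 UMIs of the class in that litter) in ILC2-like and to 254 to 300.6 CPM in mast-like cells, whereas the 8 mast cell markers summed to 48090 to 58500 CPM in mast-like and 303 to 430 CPM in ILC2-like cells. The 8 basophil markers reached 22450 to 29700 CPM in basophil-like cells and also 5110 to 11160 CPM in mast-like cells. Free RNA was common, since a UMI of the epithelial gene Sftpc lay in 70.1% of mast-like and 77.2% of ILC2-like cells. The smallest level read as detected was 3 UMIs per litter, which is 0.574 to 0.789 CPM in ILC2-like, 0.679 to 0.855 CPM in mast-like and 2.15 to 4.86 CPM in basophil-like cells.

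The DNA before the start sites of Adora3, P2rx1 and Adora2b is shown. The first pair followed each other most closely over the clusters, and both were high in mast-like cells. Adora2b was low in mast-like cells and high in basophil-like cells, where P2rx1 was high too. Windows of 250 bases before the RefSeq start (GRCm38.p6) were read for 9 of the 10 genes, all but Adora2a, and the sequences printed leave out bases inside annotated exons. Capitals mark matches on either strand to the letters searched. These were GATAA for GATA factors, CATGTG for an E-box, TGTGGT for RUNX factors, GGGCGG for a GC box, and a palindrome of AGAACA and TGTTCT with 3 free bases between them. The window of Adora3 (chr3:105904171-105904420, plus strand) held CATGTG, that of P2rx1 (chr11:72998895-72999102, plus strand, 208 bases) held GATAA read as TTATC, and that of Adora2b (chr11:62248734-62248983, plus strand) held GGGCGG or its reverse complement 6 times.
Adora3: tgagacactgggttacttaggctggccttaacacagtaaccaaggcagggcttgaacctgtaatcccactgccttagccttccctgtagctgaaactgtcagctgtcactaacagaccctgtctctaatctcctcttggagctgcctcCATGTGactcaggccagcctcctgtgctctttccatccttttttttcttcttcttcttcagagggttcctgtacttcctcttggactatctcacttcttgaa
P2rx1: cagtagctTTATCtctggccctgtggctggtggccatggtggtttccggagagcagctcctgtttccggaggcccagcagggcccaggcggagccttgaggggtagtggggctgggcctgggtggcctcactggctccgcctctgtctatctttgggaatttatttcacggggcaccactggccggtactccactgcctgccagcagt
Adora2b: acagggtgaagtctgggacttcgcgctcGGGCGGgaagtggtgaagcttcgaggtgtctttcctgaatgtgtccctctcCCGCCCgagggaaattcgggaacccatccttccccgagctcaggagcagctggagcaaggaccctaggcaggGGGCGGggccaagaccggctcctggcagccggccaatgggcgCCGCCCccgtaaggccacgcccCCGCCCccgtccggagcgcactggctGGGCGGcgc

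Over all 14 full windows of the 9 genes, exons included, GATAA was found in 5 and GGGCGG in 4, and over 32851 RefSeq windows of the same length these letters stood in 22.6% and 32.7%. With exons left out, 12 windows had bases remaining, none of them of Nt5e or Cd38, and each of the 2 motifs stood in 3. CATGTG was found in 2 of the 14 full windows and in 12.3% of all windows. TGTGGT (14% of all windows) was in none of the 14, and neither was the palindrome, to which glucocorticoid receptor is known to bind and which stood in 3 of all windows. A match is a description of the letters and says nothing of binding.

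CD39 and CD73 act in sequence. Nt5e was highest in ILC2-like cells, which had little Entpd1, while the unnamed S100a8-Ctss cluster ranked first for Entpd1 and second for Nt5e. Nt5e (chromosome 9, 88327197 to 88372092, GRCm38) measured 55.5 and 54.2 CPM in the DEX litters and 60.1 and 49.1 CPM in the PBS litters of ILC2-like cells, a mean of 54.7 ± 4.51 CPM (SD, n = 4). These cells held 87.9% of its 1095 UMIs. In mast-like cells Nt5e measured 2.30, 0.227, 0 and 0.999 CPM in the same order, 14 UMIs in all, so that its mean was 62.1-fold higher in ILC2-like cells and every litter showed that direction. The next class was the S100a8-Ctss cluster at 14.1 to 29.2 CPM, whose litters did not reach those of the ILC2-like cells. After each cell was thinned to 2000 UMIs, which left out 27 ILC2-like and 238 mast-like cells, a UMI of Nt5e was found in 10.5% of ILC2-like cells (216 of 2057, 95% Wilson interval 9.25 to 11.9%) and 0.145% of mast-like cells (28.6% and 0.519% before thinning). B-like cells, the reference for free RNA, had 0 of 185 cells with a UMI, which allows a share of up to 1.62% (3 cells of the total), and before thinning the median depth of ILC2-like cells was 7166 UMIs and that of B-like cells 3528.

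Entpd1 (chromosome 19, 40612366 to 40741602) had no single leading class among the 12 classes. Its level was 41.2 CPM in the S100a8-Ctss cluster, 30.7 in mesenchymal-like, 28.0 in mast-like and 27.4 in endothelial-like cells, and the litters of these neighbours overlapped. At a Leiden resolution of 1.0 a cluster of 63 cells in the S100a8-Ctss class gave 112 CPM of Entpd1, litters pooled. It was led by S100a9, S100a8 and Stfa1, with macrophage or monocyte markers first and neutrophil markers second. Mast-like cells held the largest share of Entpd1 UMIs (37.8%) and measured 42.7 and 20.8 CPM in the DEX litters and 28.5 and 20.0 CPM in the PBS litters. ILC2-like cells measured 3.6, 4.21, 6.09 and 3.25 CPM and basophil-like cells 1.18, 0.716, 2.49 and 1.62 CPM. The mean was thus 6.53-fold higher in mast-like than in ILC2-like cells (4.68- to 11.9-fold by litter) and 18.7-fold higher than in basophil-like cells, where it rested on 6 UMIs. At 2000 UMIs a cell, 6.36% of mast-like cells (5.39 to 7.49%) had a UMI of Entpd1, and 3.73% of epithelial-like cells (2.27 to 6.06%), the reference, had 1, so that these intervals overlapped, and 1.12% of ILC2-like cells (0.746 to 1.67%) had 1 (15.9%, 22.7% and 3.17% before thinning). Epithelial-like cells had 17.9 CPM of Entpd1 themselves and so give no clean level of free RNA, and basophil-like cells had a share of 0.422% (0.116 to 1.53%), whose interval overlapped with that of ILC2-like cells.

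Cells with UMIs of both enzymes were counted in 4 classes. Among 2057 thinned ILC2-like cells 23 had a UMI of Entpd1, 216 had 1 of Nt5e and 1 had both, a share of 0.0486% where the product of the single shares is 0.117%. Among 2076 mast-like cells the counts were 132, 3 and 0, and among 474 basophil-like cells 2, 0 and 0. In the S100a8-Ctss cluster 23 of 241 cells had a UMI of Entpd1, 11 had 1 of Nt5e and 1 had both, a share of 0.415% where the product is 0.436%. At these depths a cell that expresses a gene can give no UMI, so the pairs are counts of detection only.

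Cd38 (chromosome 5, 43868553 to 43912375) was highest in endothelial-like cells. It measured 99.9 and 99.2 CPM in the DEX litters and 144 and 80.8 CPM in the PBS litters of endothelial-like cells, above B-like cells at 44.1 to 63.8 CPM in every litter. The unnamed Higd1b-Scn7a cluster, whose barcodes were deep at a median of 33400 UMIs, followed at 47.5 CPM and held 53.6% of all Cd38 UMIs. Before thinning, endothelial markers were found in 81.2% of its cells on average and alveolar epithelial markers in 84.9%. ILC2-like cells measured 0.636, 1.84, 2.03 and 3.63 CPM on 37 UMIs, close to the 2.41 CPM of epithelial-like cells, and mast-like cells 0.461 CPM on 7 UMIs. A UMI was found in 23.4% of thinned endothelial-like, 12.4% of B-like and 0.34% of ILC2-like cells and in 0 of 402 epithelial-like cells, which allows up to 0.746% (63.4%, 17.1%, 1.73% and 4.69% before thinning). The ILC2-like share was therefore within what the reference allows.

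Ada (chromosome 2, 163726584 to 163750239, minus strand) was spread over several blood cell classes. ILC2-like cells measured 28.0 and 30.2 CPM in the DEX litters and 24.6 and 27.7 CPM in the PBS litters, and overlapped with the Gzmb-Scin cluster at 24.5 CPM and the Prtn3-Car1 cluster at 21.4 CPM. Mast-like cells measured 14.6, 15.4, 16 and 9.49 CPM and lay below ILC2-like cells in every litter, by 1.99-fold on the means. Basophil-like cells reached 5.54 CPM and epithelial-like cells 1.65 CPM.

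**Figure D1:**
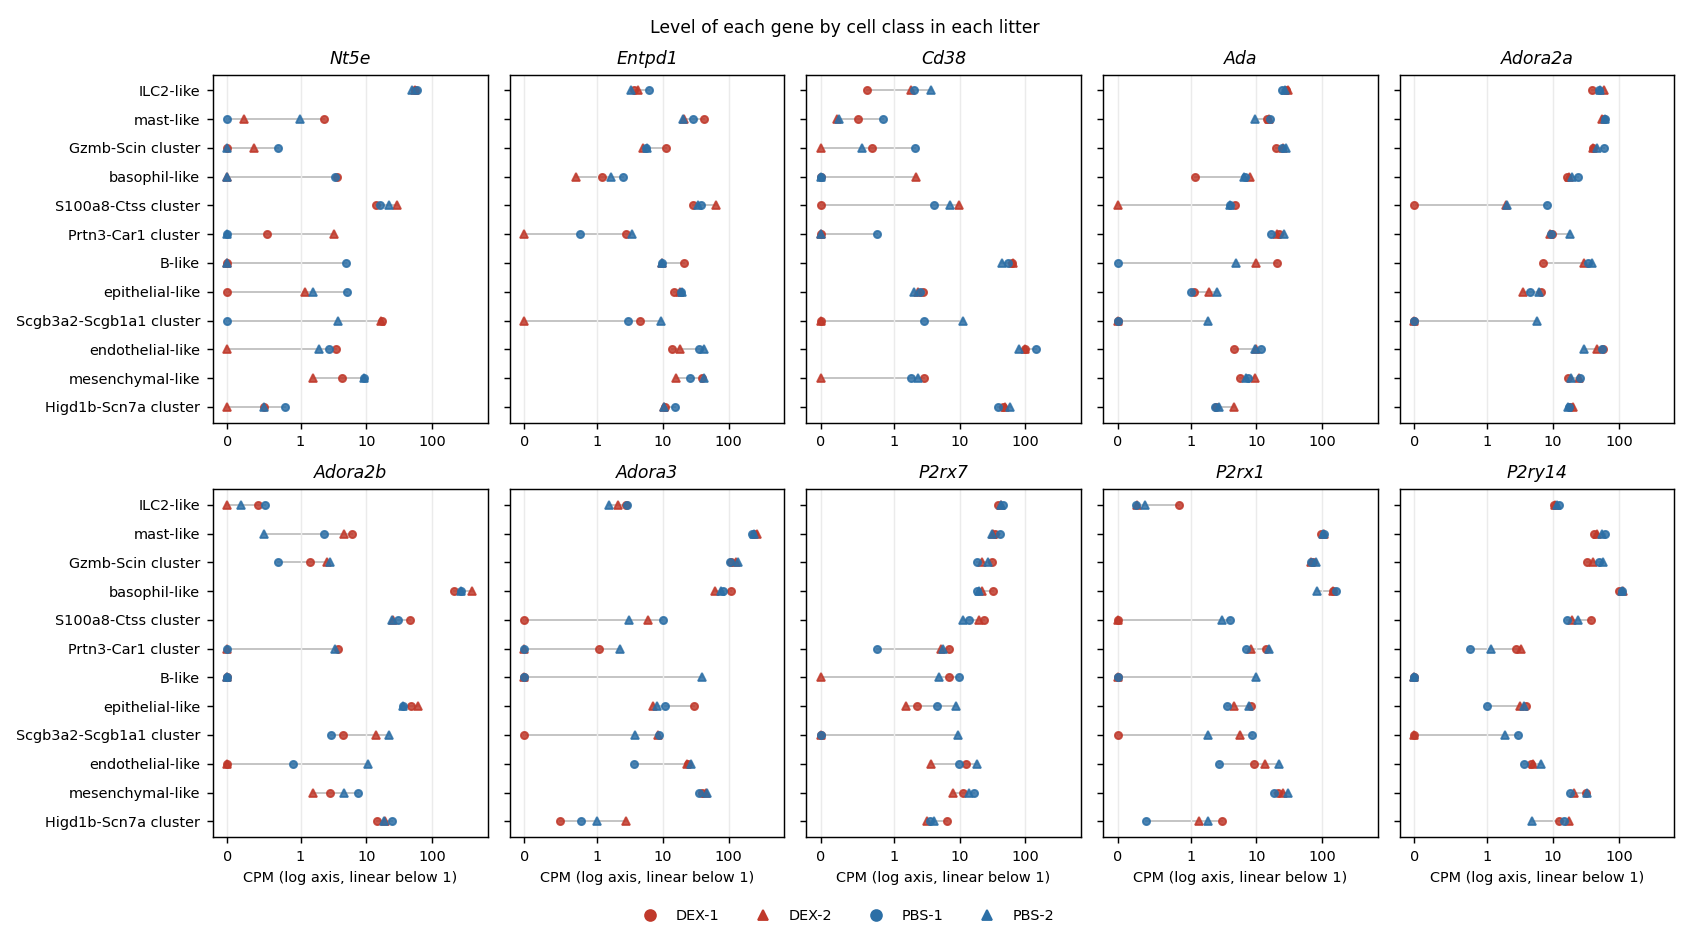
Level of each of the 10 genes in 12 cell classes, in CPM on an axis that is logarithmic above 1 and linear below it. Each point is a litter (red DEX, blue PBS) and each line joins the lowest and highest litter, so that Nt5e stands apart in ILC2-like cells, Adora2b in basophil-like cells and Adora3 in mast-like cells, while Adora2a and P2rx7 are spread over several classes.

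Among the adenosine receptors, Adora2b and Adora3 were high in different sorted blood cells. Adora2b (chromosome 11, 62248984 to 62266453), a receptor that raises cyclic AMP and needs much adenosine to respond, measured 218 and 408 CPM in the DEX litters and 274 and 278 CPM in the PBS litters of basophil-like cells. This was 6.49-fold above epithelial-like cells (47.1, 61.1, 36.7 and 36.8 CPM), the next class, and the litters did not overlap. Mast-like cells measured 3.36 CPM on 54 UMIs, ILC2-like cells 0.281 CPM on 5 UMIs, and B-like cells 0, where 3 UMIs would be 14.7 to 20.9 CPM. Basophil-like cells were thus 87.6-fold above mast-like cells on the means, with a range of 35.4- to 558-fold over litters that follows the few mast-like UMIs. A UMI of Adora2b was found in 39.0% of thinned basophil-like cells (185 of 474, 34.7 to 43.5%) against 8.46% of epithelial-like and 0.482% of mast-like cells, the latter within the 1.62% that 0 of 185 B-like cells allow (61.2%, 45.2% and 1.38% before thinning).

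Adora3 (chromosome 3, 105870858 to 105908926) showed the opposite order between mast cells and basophils. Mast-like cells measured 238 and 271 CPM in the DEX litters and 222 and 244 CPM in the PBS litters, and basophil-like cells 109, 62.3, 81.4 and 76.1 CPM. The groups of litters did not overlap and the mean was 2.97-fold higher in mast-like cells. The Gzmb-Scin cluster, in which basophil and mast cell markers stood at close shares, measured 119 CPM and overlapped with the basophil-like litters, and ILC2-like cells measured 2.29 CPM on 40 UMIs. Thinned shares were 35.7% of mast-like (33.7 to 37.8%), 14.1% of basophil-like and 0.541% of B-like cells (65.1%, 40.7% and 2.01% before thinning). Tmigd3 overlaps Adora3 on the same strand, so reads of the shared stretch could be assigned to either, and it measured 6.73 CPM in mast-like and 5.89 CPM in basophil-like cells.

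Both receptors were detected in some basophil-like cells. In 474 thinned basophil-like cells 185 had a UMI of Adora2b, 67 had 1 of Adora3 and 30 had both, a share of 6.33% where the product of the single shares is 5.52%.

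Adora2a (chromosome 10, 75316877 to 75334784), the high-affinity receptor that raises cyclic AMP and restrains many lymphocytes, was shared by several classes. Mast-like cells measured 58.6 and 54.6 CPM in the DEX litters and 60.7 and 61.2 CPM in the PBS litters, and ILC2-like cells 39.6, 58.6, 49.2 and 51.1 CPM. These overlapped with each other, with endothelial-like cells at 47.4 CPM and with the Gzmb-Scin cluster at 47.2 CPM. Thinned shares were 11.8% in ILC2-like and 10.2% in mast-like cells, above the 4.86% (2.58 to 8.99%) of B-like cells. Basophil-like cells had 4.01%, within the B-like interval (28.1%, 27.7%, 9.55% and 12.9% before thinning, in the order named). B-like cells had 27.5 CPM of Adora2a themselves and so give no clean level of free RNA. Basophil-like cells measured 16.6, 17.2, 24.1 and 19.4 CPM, and epithelial-like cells 3.48 to 6.65 CPM. Among the ILC2-like cells 29 of 2057 had UMIs of both Nt5e and Adora2a, 1.41% where the product of the single shares is 1.24%.

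Of the receptors for nucleotides, ILC2-like cells shared P2rx7 with mast-like cells, had little P2rx1 and had less P2ry14 than mast-like cells. P2rx7 (chromosome 5, 122643911 to 122691432), an ATP-gated channel that opens at high ATP and can lead to cell death, measured 38.8 and 42.6 CPM in the DEX litters and 44.9 and 43.0 CPM in the PBS litters of ILC2-like cells. Mast-like cells measured 34.3, 31.9, 40.7 and 31.0 CPM and lay below ILC2-like cells within each litter, although the ranges overlapped and the means differed by 1.23-fold. A UMI was found in 8.95% of thinned ILC2-like and 6.17% of mast-like cells against 0.541% of B-like cells (26.6%, 18.0% and 2.01% before thinning).

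P2rx1 (chromosome 11, 72999103 to 73015200), a fast ATP-gated channel, was by contrast near absent from ILC2-like cells, with 8 UMIs and 0.437 CPM. Basophil-like cells measured 144 and 144 CPM in the DEX litters and 163 and 82.6 CPM in the PBS litters, and mast-like cells 96.2, 109, 107 and 104 CPM. The basophil-like cells were higher in 3 of 4 litters and lower in PBS-2, so the order of these classes was not fixed by the litters. Thinned shares were 25.1% in basophil-like, 16.5% in mast-like and 0.541% in B-like cells (63.7%, 41.8% and 1.01% before thinning).

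P2ry14 (chromosome 3, 59113855 to 59153618, minus strand), the receptor for UDP-glucose and other UDP-sugars, was, among the 12 classes, highest in basophil-like cells. They measured 99.3 and 114 CPM in the DEX litters and 112 and 112 CPM in the PBS litters, and mast-like cells 41.7, 46.9, 60.7 and 55.2 CPM. The litters of these classes did not overlap, and the means differed by 2.14-fold. Finer clustering, at a Leiden resolution of 1.0, gave a cluster of 20 cells with 248 CPM of P2ry14, litters pooled. It was led by Postn, Gucy1a1 and Higd1b, pericyte or smooth muscle markers ranked first in it, and the litters had 3, 9, 8 and 0 of its cells. ILC2-like cells measured 10.4 to 12.4 CPM, above the 1.005 to 3.88 CPM of epithelial-like cells, the reference, in every litter. Their thinned share was 2.14% (1.60 to 2.86%) and that of epithelial-like cells 0.995% (0.388 to 2.53%), and these intervals overlapped. Basophil-like cells had 18.6% and mast-like cells 9.92% (8.11%, 5.43%, 53.5% and 24.3% before thinning, in the order named). The gene lies inside Med12l, which is on the other strand and measured 45.4 CPM in mast-like, 35.3 in ILC2-like and 3.43 in basophil-like cells.

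Over the 18 clusters, the levels of the 10 genes gave 45 pairs, compared as log2(CPM + 1). The pair closest to each other was Adora3 and P2rx1 (Pearson r = 0.923), followed by Ada and Adora2a (0.774) and Adora2a and P2rx7 (0.717), and the pair farthest apart was Ada and Adora2b (-0.737). Among all other genes at 5 CPM or more in some cluster, P2rx1 was nearest to Ms4a2 (0.976), a chain of the high-affinity IgE receptor, and to Far2 (0.966), and Adora3 to Cd200r3 (0.968) and Papss2 (0.965). Nt5e was nearest to Zdhhc23 (0.914) and Pparg (0.911), a nuclear receptor, Adora2b to Dgkg (0.901) and Anxa1 (0.894), and Cd38 to Glp1r (0.929) and Gimap4 (0.903). The nearest genes were Samsn1 (0.960) and Sh3kbp1 (0.938) for P2rx7, Serinc3 (0.897) and Rnf2 (0.885) for Adora2a, and Recql (0.900) and Rbbp4 (0.894) for Ada. For P2ry14 they were Fxyd5 (0.881) and Ccrl2 (0.866), and for Entpd1 Rrbp1 (0.858) and Acbd3 (0.843). These correlations are across clusters that share litters, library and free RNA, and Ms4a2 and Cd200r3 are basophil markers used to name clusters. Nt5e and P2rx7 were highest in an ILC2-like cluster of 29 cells with a median of 2366 UMIs, which weighed as much as any other cluster.

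Within ILC2-like cells the genes varied between states. Sub-clustering gave 7 subclusters, again without the purine genes: subcluster 0 (553 cells, led by Rnf128, Enah and Csf2), subcluster 1 (383, mitotic genes such as Ube2c), subcluster 2 (355, Ramp3, Calca and Tnfrsf9), subcluster 3 (344, Cd7, Lgals3 and Tcf7), subcluster 4 (208, DNA replication genes such as Mcm2), subcluster 5 (207, Pla2g7, Atp4a, Hdc and Cpa3) and subcluster 6 (34, Trps1 and Pde7b). Subcluster 6 was shallow at a median of 2183 UMIs. Subclusters 0, 2 and 3 drew on DEX and PBS litters unevenly. In the order DEX-1, DEX-2, PBS-1 and PBS-2, subcluster 0 had 97, 57, 184 and 215 cells and subcluster 2 had 124, 133, 48 and 50. Subcluster 3 had 118, 105, 60 and 61 cells, and subcluster 5 had 50, 29, 70 and 58. The leading genes Rnf128, Enah, Ramp3 and Tnfrsf9 of subclusters 0 and 2 differed between DEX and PBS in these cells. The sizes are therefore not compared.

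Nt5e was highest in subclusters 2 and 0 among those of ordinary depth and lowest in subclusters 1 and 5. Subcluster 2 measured 106 and 113 CPM in the DEX litters and 108 and 67.2 CPM in the PBS litters, and subcluster 0 measured 90.5, 49.9, 108 and 69.8 CPM. Both lay above the mitotic subcluster 1 (31.0, 28.0, 17.0 and 31.5 CPM) and subcluster 5 (11.2, 38.3, 7.31 and 20.2 CPM) in all litters, while subclusters 4 (51.2 CPM) and 3 (39.3 CPM) fell between. The 34 cells of subcluster 6 gave 414 CPM on 30 UMIs.

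Entpd1 showed a different order, with subcluster 5 at 30.0, 27.4, 31.7 and 26.0 CPM. The other subclusters of ordinary depth had means of at most 3.18 CPM, and no litter of theirs reached subcluster 5. These 35 UMIs were 35 of the 74 that Entpd1 had in ILC2-like cells. The same subcluster was highest for Adora2a (78.6, 126, 80.4 and 124 CPM, above subclusters 0, 1, 3 and 4 in every litter) and overlapped there with subcluster 2 (72.8 to 109 CPM). It also held 23 of the 40 Adora3 UMIs of ILC2-like cells, at 26.2, 32.8, 21.9 and 2.89 CPM. In subcluster 5 the mast cell marker list summed to 835, 2473, 780 and 1060 CPM, with 6 of its 8 genes detected and Mrgprb1 and Mrgprb2 at 0, against 180 to 465 CPM in subclusters 0 to 4. The basophil list summed to 63.7, 427, 110 and 104 CPM there and to at most 76.4 CPM in subclusters 0 to 4, and ILC2 markers stayed at 3589 to 5097 CPM. The part of mast cell RNA in the Entpd1, Adora2a and Adora3 levels of subcluster 5 was not tested.

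Ada was highest in the cycling subclusters, with 39.6, 41.9, 32.2 and 29.3 CPM in subcluster 4 and 29.7, 37.8, 23.8 and 37.1 CPM in subcluster 1. Subclusters 0 (27.6 CPM), 2 (23.7), 5 (21.3) and 3 (19.7) followed, with overlapping litters. Among the subclusters of ordinary depth, P2rx7 measured 52.2 to 54.6 CPM over litters in subcluster 0. Its means were 45.8 CPM in subcluster 3, 38.4 in subcluster 2, 37.8 in subcluster 1, 36.1 in subcluster 4 and 28.9 in subcluster 5. The shallow subcluster 6 gave 57.1, 117, 293 and 292 CPM of P2rx7 on 16 UMIs. P2ry14 measured 48.7, 21.9, 21.9 and 11.6 CPM in subcluster 5 and 10.3, 18.6, 35.3 and 17.7 CPM in subcluster 3, which overlapped, and had means of at most 11.5 CPM elsewhere. Cd38, Adora2b and P2rx1 gave at most 18 UMIs in any ILC2-like subcluster and are not ordered.

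**Figure D2:**
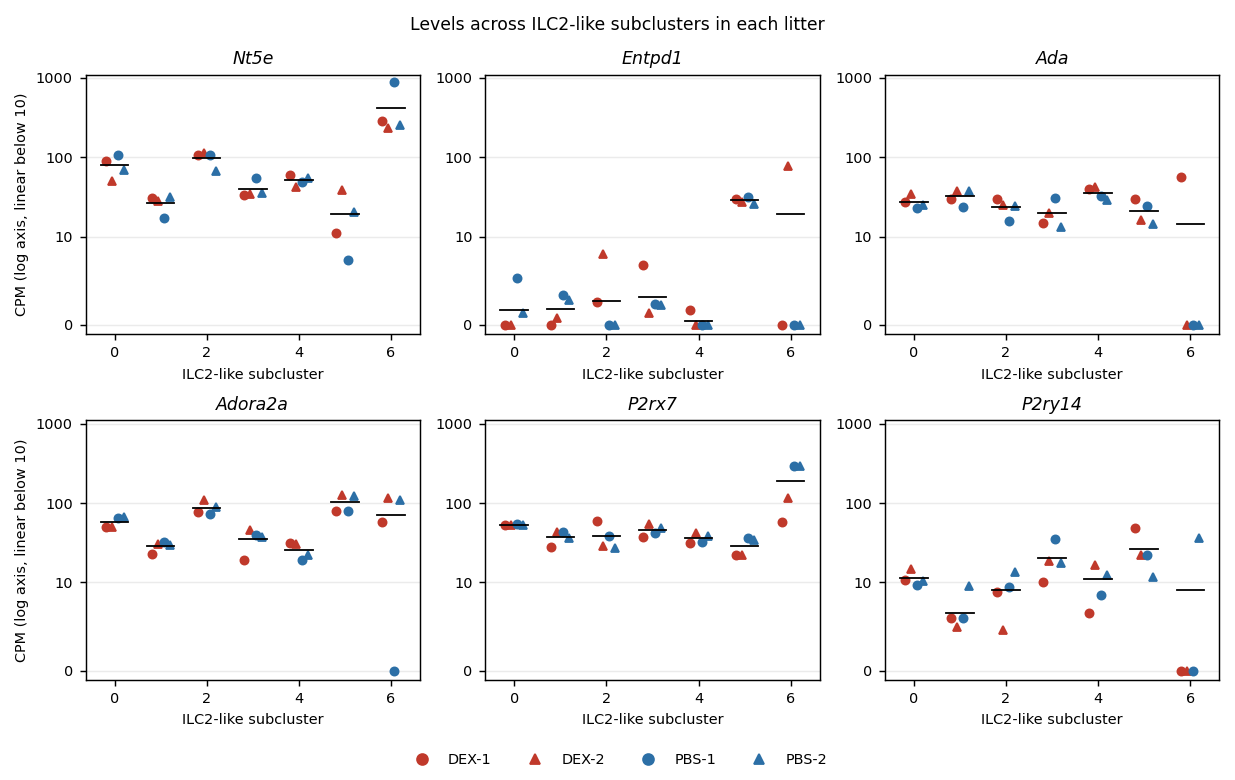
Level of 6 genes in the 7 ILC2-like subclusters, in CPM on an axis that is logarithmic above 10 and linear below it. Each point is a litter and each bar the mean of 4 litters: Nt5e lies highest in subclusters 0 and 2 apart from the shallow subcluster 6, and Entpd1 lies near 28.7 CPM in subcluster 5 and at most 3.18 CPM on average in subclusters 0 to 4.

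Mast-like cells also split. Of their 7 subclusters, the 192 cells led by Mrgprb1 and Mrgprb2, receptors of connective tissue mast cells, had the highest Adora3 (545 and 563 CPM in the DEX litters and 434 and 477 CPM in the PBS litters). The 739 cells led by Mcpt2 and Il1r2 had 178, 180, 147 and 159 CPM, and no litter of either group overlapped with the other. P2rx1 followed with 153 to 195 CPM against 82.9 to 125 CPM. P2ry14 ran the other way, at 20.1 to 42.9 CPM in the Mrgprb1 cells and 44.2 to 83.7 CPM in the Mcpt2 cells, and so did P2rx7 (17.6 to 35.9 against 36.0 to 49.1 CPM). The mast cell list summed to 89900 to 106200 CPM in the Mrgprb1 cells and 31820 to 36050 CPM in the Mcpt2 cells.

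The comparison of DEX with PBS litters asks which genes differ in fetal lung cells when the mother received a glucocorticoid. UMIs were summed per class and litter and edgeR's quasi-likelihood test was fitted over all genes that passed a filter on low counts. Calls required p under 0.05 after Benjamini-Hochberg adjustment. In ILC2-like cells 257 of 10658 genes tested were called (2.41%), and 7 of the 10 genes passed the filter on low counts. None of the 7 was called. Cd38, Adora2b and P2rx1 were too low to test there, Cd38 with 3, 7, 8 and 19 UMIs over the 4 litters. At an unadjusted p under 0.05 there were 0 of the 7 and 12.4% of all genes, and DEX and PBS litters did not overlap for 3 of the 7 and for 42.4% of all genes. The median log2 fold change, DEX over PBS, was -0.042 over the 7 genes and -0.00141 over all genes.

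Nt5e in ILC2-like cells averaged 54.8 CPM over the DEX and 54.6 CPM over the PBS litters, and the groups overlapped. Its log2 fold change was 0.02 ± 0.12 (SE), with a 95% interval of -0.23 to 0.27 and an edgeR adjusted p of 0.978. Adora2a (49.1 against 50.1 CPM) gave -0.04 ± 0.16 with an interval of -0.38 to 0.29 and overlapping groups. Ada was higher in both DEX litters (29.1 against 26.2 CPM) and P2rx7 lower in both (40.7 against 44.0 CPM), but these differences of 0.15 ± 0.15 and -0.11 ± 0.12 had edgeR adjusted p of 0.787 and 0.805. With cells thinned to 2000 UMIs they were 0.32 and -0.71 (edgeR adjusted p of 0.811 and 0.124), and that of Adora2a was -0.34. P2ry14 was also lower in both DEX litters (10.4 against 11.9 CPM, log2 fold change -0.19 ± 0.21, adjusted p = 0.806). Entpd1 and Adora3 rested on 74 and 40 UMIs, and their intervals of -1.04 to 0.61 and -0.81 to 1.28 were wide.

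**Figure D3:**
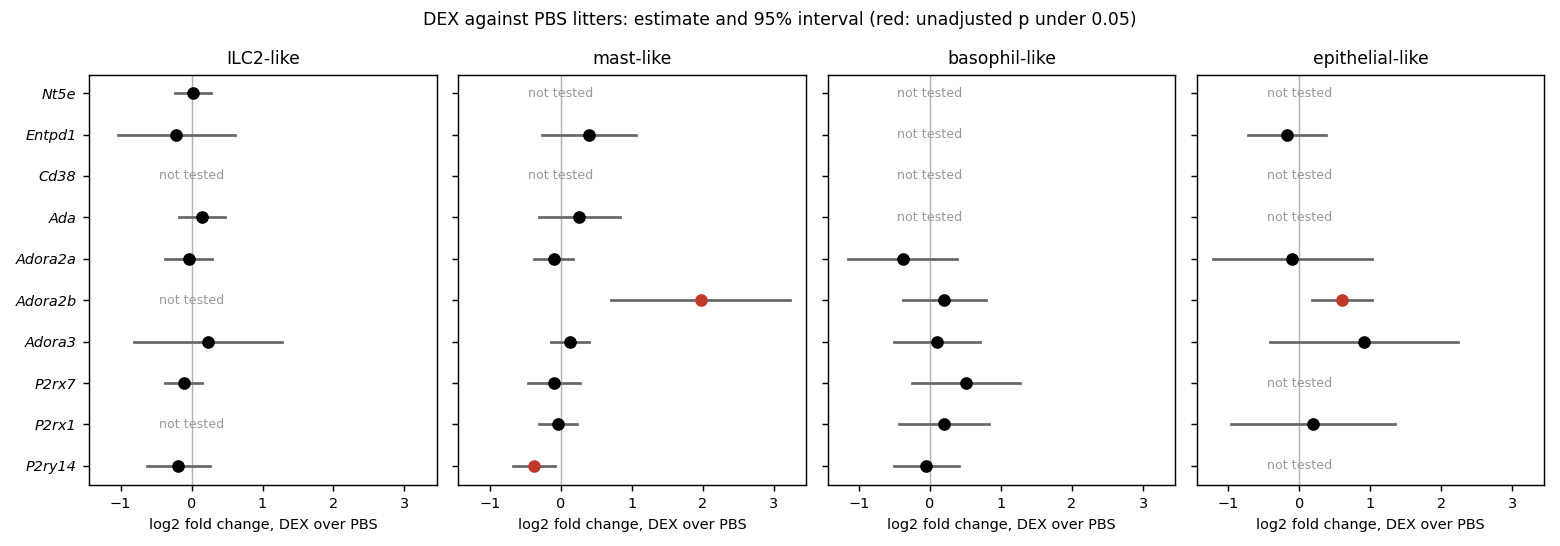
Log2 fold change, DEX over PBS litters, of each gene in ILC2-like, mast-like, basophil-like and epithelial-like cells, with 95% intervals from edgeR and n = 2 litters per group. Red marks an unadjusted p under 0.05 (Adora2b and P2ry14 in mast-like cells and Adora2b in epithelial-like cells), and no gene had an adjusted p under 0.05.

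In mast-like cells 1 of 10480 genes was called (0.00954%), Hpgd, which encodes a prostaglandin-degrading enzyme and is named after its values were seen. Of the 10 genes 8 were tested, all but Nt5e and Cd38, and none was called. Their median log2 fold change was 0.048 against -0.00165 over all genes, and the litters of DEX and PBS did not overlap for 3 of the 8 and for 33.5% of all genes. Adora2b and P2ry14 had an unadjusted p under 0.05, as did 5.94% of all genes.

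P2ry14 in mast-like cells was 41.7 and 46.9 CPM in the DEX and 60.7 and 55.2 CPM in the PBS litters, so both DEX litters lay below both PBS litters. Its log2 fold change was -0.38 ± 0.13 (95% interval -0.67 to -0.08), with an edgeR p of 0.0185 and an adjusted p of 0.674. Within the Mcpt2 subcluster the litters kept this order (44.2 and 58.1 against 83.7 and 77.6 CPM), whereas in the subcluster led by Sucnr1 they overlapped (43.4 and 47.2 against 59.7 and 41.7 CPM). Med12l on the other strand was also lower in DEX litters of mast-like cells, at 36.6 and 39.6 against 55.6 and 50 CPM (log2 fold change -0.46 ± 0.14, edgeR adjusted p = 0.558). How reads were assigned by strand is not given in the sources used here, and the part of Med12l in the P2ry14 difference was not tested.

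Adora2b in mast-like cells rested on few UMIs. The 4 litters had 24, 20, 8 and 2, or 6.14, 4.53, 2.28 and 0.499 CPM, found in 32 of 2314 cells. The log2 fold change was 1.97 ± 0.56 (95% interval 0.71 to 3.23), with an edgeR p of 0.00574 and an adjusted p of 0.509. The 30 cells of a subcluster led by heat shock genes such as Hspa1a held 20 of the 54 UMIs, in 6 cells, and a single DEX-1 barcode held 11. In that subcluster the mast cell list summed to 7022 to 22400 CPM and the basophil list to 5805 to 11510 CPM. Without it the UMIs were 9, 18, 5 and 2, and the gene no longer passed the filter on low counts. Adora2b was called in 3 alternatives of this fit, with no filter (adjusted p = 0.00881), with a replicate block (0.0131) and without PBS-1 (log2 fold change 3.33, 0.0465), and over all omissions of a litter its log2 fold change ran from 1.24 to 3.33. The basophil list in all mast-like cells summed to 11160 and 5572 CPM in the DEX litters and 9150 and 5110 CPM in the PBS litters, and its part in the Adora2b difference was not tested.

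The other 6 tested genes of the mast-like cells had log2 fold changes from -0.10 to 0.40. For Entpd1 (0.40 ± 0.30, adjusted p = 0.978) DEX-1 stood alone at 42.7 CPM, and without it the value was -0.20. Adora3 (0.13 ± 0.12) and P2rx1 (-0.04 ± 0.12) had intervals of -0.14 to 0.40 and -0.30 to 0.23.

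**Figure D4:**
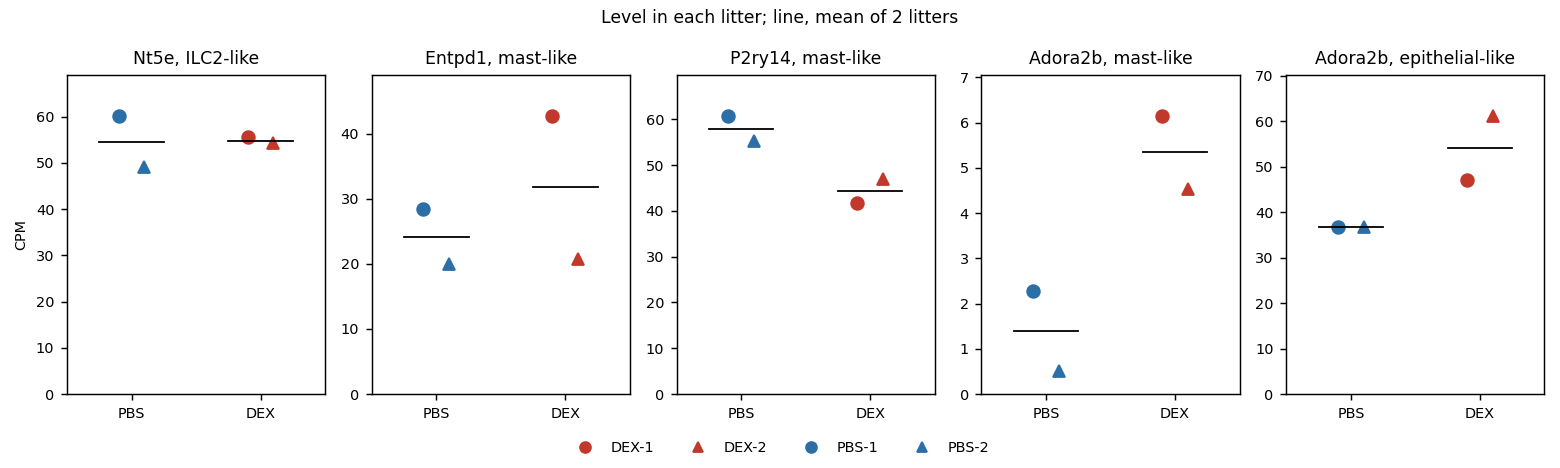
Level in CPM, on axes that start at 0, of Nt5e in ILC2-like cells, Entpd1, P2ry14 and Adora2b in mast-like cells and Adora2b in epithelial-like cells, with a point per litter and a line at the mean of 2 litters. DEX and PBS litters do not overlap for P2ry14 and for Adora2b in either class, and they overlap for Nt5e and Entpd1.

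In basophil-like cells edgeR called 0 of 7277 genes (0%), DESeq2 also called 0, and 131 genes (1.8%) had an unadjusted p under 0.05. Of the 10 genes 6 were tested and 0 had an unadjusted p under 0.05. Adora2b averaged 313 CPM over the DEX and 276 CPM over the PBS litters with overlap between the groups, since DEX-1 was the lowest and DEX-2 the highest litter, and a log2 fold change of 0.20 ± 0.27. P2rx7 was higher in both DEX litters (31.9 and 22.2 against 18.3 and 19.4 CPM, log2 fold change 0.50 ± 0.35) and Adora2a lower in both (16.6 and 17.2 against 24.1 and 19.4 CPM, -0.39 ± 0.35), each with an edgeR adjusted p of 1. Litters did not overlap for these 2 of the 6 genes and for 26.8% of all genes.

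In epithelial-like cells 5 of 9921 genes were called (0.0504%): Acod1, Cbr2, Cldn4, Ccl3 and Csf1, named after their values were seen. Acod1, Ccl3 and Csf1 are also leading genes of the basophil-like cluster, and the part of basophil RNA in these calls was not tested. Of the 10 genes 5 were tested and none was called. Adora2b was higher in both DEX litters, at 47.1 and 61.1 against 36.7 and 36.8 CPM, with a log2 fold change of 0.60 ± 0.19 (95% interval 0.18 to 1.02), an edgeR p of 0.0104 and an adjusted p of 0.999. The value was 0.36 without DEX-2 and 0.78 without DEX-1 (edgeR adjusted p = 0.0619). The unadjusted p was under 0.05 for this 1 of the 5 genes and for 4.5% of all genes, and litters did not overlap for 2 of the 5 and for 33.3% of all genes. The basophil list moved with it, at 1052 and 797 CPM in the DEX litters and 224 and 373 CPM in the PBS litters, with all 8 of its genes detected, and its part in the Adora2b difference was not tested. For Adora3 the litters gave 29.9, 6.96, 10.6 and 8.17 CPM, so that DEX-1 stood alone. Its log2 fold change of 0.91 ± 0.59 became -0.38 without DEX-1 and 1.67 without DEX-2, where the gene was called (edgeR adjusted p = 0.00125).

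Whether the DEX difference itself differed between ILC2-like and mast-like cells was tested with a term for class and treatment. The test called 15 of 11547 genes (0.13%), none of them among the 9 tested here, and 0 of the 9 had an unadjusted p under 0.05 against 5.53% of all genes. The differences, ILC2-like minus mast-like on the log2 scale, included -0.66 ± 0.43 for Entpd1 (adjusted p = 0.932) and -2.54 ± 1.57 for Adora2b (adjusted p = 0.928).

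The 41 other genes of the purine list cover ATP release, ectonucleotidases, enzymes for NAD, adenosine clearance and salvage, nucleoside transporters and the remaining receptors. In ILC2-like cells 15 of them were tested and 0 were called, with 11 higher and 4 lower in DEX and a median log2 fold change of 0.09. In mast-like cells 16 were tested and 0 called, with 6 higher and 10 lower and a median of -0.10, and in basophil-like (12 tested) and epithelial-like cells (13 tested) 0 were called. At an unadjusted p under 0.05 there were 2 of the 15 in ILC2-like cells, where 12.4% of all genes had such a p, 1 of the 13 in epithelial-like cells against 4.5%, and 0 in mast-like and basophil-like cells against 5.94% and 1.8%. The gene in epithelial-like cells, named after its value was seen, was Hprt, a purine salvage enzyme, at -0.40 ± 0.15 (edgeR adjusted p = 0.999). Over all genes the median log2 fold change was -0.00141 in ILC2-like and -0.00165 in mast-like cells. The 2 genes of the ILC2-like cells were likewise Slc17a9, the vesicular nucleotide transporter (-0.50 ± 0.20, adjusted p = 0.315), and Adk, the kinase that turns adenosine into AMP (0.34 ± 0.15, adjusted p = 0.336).

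For each role the gene with the highest level in ILC2-like cells was read. Panx1, a channel that releases ATP, measured 43.2, 43.7, 35.8 and 37.9 CPM in ILC2-like cells against 7.61 CPM in mast-like cells, and was higher in both DEX litters without being called (0.24 ± 0.12, adjusted p = 0.477). P2rx4, an ATP-gated channel, measured 42.6, 50, 36.3 and 44.9 CPM in ILC2-like cells and reached 204 CPM in mast-like and 160 CPM in basophil-like cells. Slc29a1, an equilibrative nucleoside transporter, measured 37.5, 36.3, 34.5 and 34.8 CPM in ILC2-like cells, 123 CPM in mast-like and 23.5 CPM in basophil-like cells. Aprt, which salvages adenine, measured 258 CPM on average in ILC2-like cells, 343 CPM in mast-like and 587 CPM in basophil-like cells. The leading genes of the other roles were low in ILC2-like cells, with 2.46 CPM for Acpp, 1.81 for P2ry12, 1.47 for Art2b and 0.129 for Adora1.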

How the data were processed

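Fetal lung cells of 4 litters were profiled as 1 pooled 10x 5′ library. The deposited matrix holds whole UMI counts that were not normalized, made by the authors with Cell Ranger 7 against mm10 (7.0.0 in the matrix header), as the submitters' processing notes and file headers give; the handling of strand is not given in the sources used here. GEO lists no sample per litter, so litters were read from 4 hashtag antibodies named in the labels. The study's methods give 2 dams per group, while a figure legend of the study gives 1 for this experiment; if the legend holds, the 2 hashtags of a group are not separate litters and p-values measure a smaller spread.

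Barcodes with at least 200 genes and at most 5% mitochondrial UMIs were kept (10409 of 10648). HTODemux in Seurat 5.3.0 (positive quantile 0.99) assigned litters; 736 barcodes with several hashtags and 2405 with none were left out, while doublets within a litter were kept. Counts were scaled to 10000 UMIs, and 2000 variable genes without purine genes, 20 components, 15 neighbours and Leiden clustering at 0.5 (scanpy 1.11.5, leidenalg 0.10.2) gave 18 clusters. A name needed at least 3 markers in 25% of cells, a limit set after the clusters were seen, so class names are rebuilt and can differ from the study's. Summed counts were tested with edgeR 4.0.16 (quasi-likelihood, TMM, filterByExpr, R 4.3.3), with limma 3.58.1 and DESeq2 1.42.0 as alternatives, and the scripts were tested on simulated data. Intervals for shares are Wilson intervals, the limit that a count of 0 allows is 3 of the cells counted, and these, like the floor of 3 UMIs, cover counting error only. The 10 genes and the purine and marker lists were chosen with earlier results of these data known. Purine genes beside the 10 were named as the highest of each role in ILC2-like cells or after their values were seen. Other genes were named as the 2 nearest in pattern, among genes at 5 CPM or more, or as called genes. The rest were leading, marker or overlapping genes. Alternatives covered normalization, filters, thinning, demultiplexing, cell filters, clustering and leaving out each litter.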

Additional observations from a re-analysis of the deposited data

How the results depend on the processing

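Over all alternatives run, no log2 fold change of the 10 genes passed the threshold in ILC2-like or basophil-like cells. Adora2b in mast-like cells did so in the alternatives named with its mast-like result. Adora3 in epithelial-like cells did so only without DEX-2 (log2 fold change 1.67), a fit with a lone DEX litter. In ILC2-like cells 91 of 101 recomputed fold changes kept their direction and side of the threshold, in mast-like cells 101 of 110, in basophil-like cells 26 of 30 and in epithelial-like cells 19 of 25. The cause of a change was not tested unless the setting has fewer or more genes or samples by construction.

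The 257 genes called in ILC2-like cells became 118 with DESeq2, 107 with cells thinned to 2000 UMIs, 167 in cells with a Gata3 UMI, 531 with no filter on low counts, and 311 to 434 without 1 litter. The 1 gene called in mast-like cells became 7 with DESeq2, 0 outside cycling subclusters, 3 after thinning, 0 with MULTIseqDemux, 165 with no filter, 0 without barcodes over 2 times the median UMIs, and 16 to 62 without 1 litter. Without 1 litter the calls were 8 to 28 in basophil-like cells, 48 to 108 in epithelial-like cells and 10 to 30 for the difference between classes, where the lone litter of a group is assumed to vary like the others. The labels pair no litters. Same-numbered litters deviated together with r = 0.123 in ILC2-like, 0.223 in mast-like, -0.306 in basophil-like and -0.351 in epithelial-like cells. Whether same-numbered litters share a source of difference was not tested. A replicate block gave 528 calls in ILC2-like and 231 in mast-like cells.

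Outside cycling subclusters the log2 fold changes in ILC2-like cells were -0.0276 for Nt5e and 0.0122 for Entpd1. Without deep barcodes they were 0.0309 for Adora2a, 0.0472 for P2rx7 and 0.0255 for P2ry14, and after thinning 0.88 for P2ry14, with larger values of the same sign for P2rx7 (-0.71), Adora2a (-0.34) and Ada (0.32). In mast-like cells thinning gave -0.0817 for Ada and 0.18 for P2rx1. Adora2b in mast-like cells was 1.98 with no filter (edgeR adjusted p = 0.00881), 2.00 with a replicate block (adjusted p = 0.0131) and 1.24 to 3.33 without 1 litter, and DESeq2 gave it no adjusted p.

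Leaving out 1 litter gave, in ILC2-like cells, -0.12 to 0.16 for Nt5e, -0.64 to 0.25 for Entpd1, -0.35 to 0.25 for Adora2a and -0.17 to 0.67 for Adora3. In mast-like cells it gave -0.20 to 0.85 for Entpd1, -0.0562 to 0.65 for Ada, -0.27 to 0.0886 for P2rx7 and -0.11 to 0.0469 for P2rx1. In basophil-like cells the ranges were -0.33 to 0.58 for Adora2b, -0.33 to 0.47 for Adora3, -0.19 to 0.86 for P2rx1 and -0.16 to 0.0373 for P2ry14. In epithelial-like cells they were -0.55 to 0.33 for Adora2a, 0.36 to 0.78 for Adora2b, -0.38 to 1.67 for Adora3, -0.35 to -0.03 for Entpd1 and -0.24 to 0.83 for P2rx1.

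The class with the highest share of cells with a UMI was the same for 3 of the 10 genes with no thinning and for 7 when thinned to 1000 UMIs. At a Leiden resolution of 1.0 the class of the highest cluster was the same for 9 of 10 genes, P2ry14 being the exception. Its highest cluster there was the one of 20 cells given with its levels. With 2 litters per group, Entpd1 and Adora3 in ILC2-like cells and Adora2b in mast-like cells were limited by their few UMIs.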

Other observations

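Among the purine salvage genes, Adk, the kinase that returns adenosine to AMP, and Hprt, which salvages hypoxanthine and guanine, had opposite orders in ILC2-like and mast-like cells; both were picked after their values were seen. Adk measured 552, 604, 601 and 725 CPM in mast-like cells and 39.2, 50.2, 33.7 and 36.3 CPM in ILC2-like cells (order DEX-1, DEX-2, PBS-1, PBS-2), with 273 CPM on average in basophil-like cells. Hprt measured 65.8, 72.3, 73.5 and 74.9 CPM in mast-like cells and 194, 188, 175 and 191 CPM in ILC2-like cells. P2ry1, an ADP receptor, measured 58, 37.2, 46.5 and 56.7 CPM in basophil-like cells against 4.01 CPM in mast-like and 1.30 CPM in ILC2-like cells, and Xdh, which oxidises hypoxanthine and xanthine to urate, 29.6, 38.6, 44.8 and 21 CPM in basophil-like cells against 0.128 CPM in mast-like cells. The litters of the classes named did not overlap for any of these 4 genes. P2ry1 and Xdh were likewise picked after their values were seen.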
